A study of Mus musculus with 5 samples.

Results

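Adenylyl cyclases and the proteins that hold and form protein kinase A were examined in mouse thoracic aorta with a dominant negative PPARγ in smooth muscle. The 10 genes were the cyclases Adcy3, Adcy4, Adcy5 and Adcy6, the kinase anchoring proteins Sphkap, Akap12 and Akap13, and the kinase subunits Prkaca, Prkar1a and Prkar2b. They were read by 28 probe sets of an Affymetrix whole-genome mouse array, sets of short probes near the 3′ end of a transcript, out of 34945 probe sets that the platform annotation assigns to 1 gene, covering 18193 genes. Every probe set assigned to 1 of the 10 genes alone was kept, and all 28 had a value on every array. The gene set was selected on pathway membership with the measured log2 differences of this same genotype comparison already known, so those differences are given as a description.

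Cyclic AMP is made by adenylyl cyclases when a receptor activates the stimulatory G protein, and it frees the catalytic subunits of protein kinase A from the regulatory subunits. In vascular smooth muscle this pathway lowers cell calcium and relaxes the vessel. Anchoring proteins bind the regulatory subunits and hold the kinase beside its substrates, and type I and type II regulatory subunits differ in which anchors they bind.

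The transgenic mice carried human PPARγ with the P467L mutation, a dominant negative form of this nuclear receptor, driven by the smooth muscle myosin heavy chain promoter, and the controls were their non-transgenic littermates. All were male C57BL/6 mice, with age not given in the sources used here. There were 3 P467L arrays and 2 non-transgenic arrays, each a pool of RNA from 6 to 8 aortas that the design text calls an independent biological replicate. The values are log2 intensities after robust multi-array averaging (RMA). A probe set's level depends on its probes, so each difference was taken between arrays within 1 probe set, and bright or dim describes its signal on the array, not the amount of RNA relative to another gene. In these pooled tissue samples, fewer cells of a type and less RNA per cell cannot be told apart.

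The labelled tissue was checked against its markers: all 9 smooth muscle markers lay above the array medians, and Acta2, smooth muscle actin, measured 14.79 to 14.83 in P467L and 14.79 to 14.80 in non-transgenic arrays. The 9 were not all level: 2 had an unadjusted p below 0.05, desmin (Des) at 0.81 (SE 0.13) and smoothelin (Smtn) at 0.16 (SE 0.04), both higher in P467L aortas, and the groups did not overlap in 2 that were lower, among them myocardin (Myocd) at -0.36 (SE 0.15). Over all 18193 genes, read from their brightest probe set, 6.94% were higher at that p. In 6.55% all P467L arrays lay below both non-transgenic arrays. Array medians were 6.17 to 6.23 in P467L and 6.25 in both non-transgenic arrays. P467L replicate 1 stood apart, with 842 probe sets at least 1 log2 unit below all other arrays and 0 as far above. Non-transgenic replicate 2 had 56 probe sets at least 1 unit above all others, and 6 of 6 stomach markers were highest there. Where leaving out either array moved a difference of at least 0.1 in a member or named pathway gene by over 1.5 times, the value without it is given.

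Over all 45037 probe sets, limma called 0 at an adjusted p of 0.05 (0%), with 3353 at an unadjusted p below 0.05, and the members' smallest adjusted p was 0.126. The members therefore hold no called change. At an unadjusted p below 0.05 there were 5 of the 28, against 7.44% of all probe sets; 3 were higher (4.71% of all probe sets) and 2 lower (2.74%) in P467L aortas. In 10 of the 28 the groups did not overlap, against 18.9% of all probe sets; all P467L arrays were higher in 6 (11.2% of all probe sets) and lower in 4 (7.61%). The median difference of the 28 was -0.01 on the log2 scale and that of all probe sets was 0, while the median absolute difference was 0.14 for the members and 0.07 for all. Because earlier results of this comparison were known when the genes were chosen, these counts support nothing about the pathway. Leaving out non-transgenic replicate 2 leaves 1 control array, and groups of fewer arrays overlap less often by construction. Member counts from such fits are therefore not set against these shares.

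**Figure D1:**
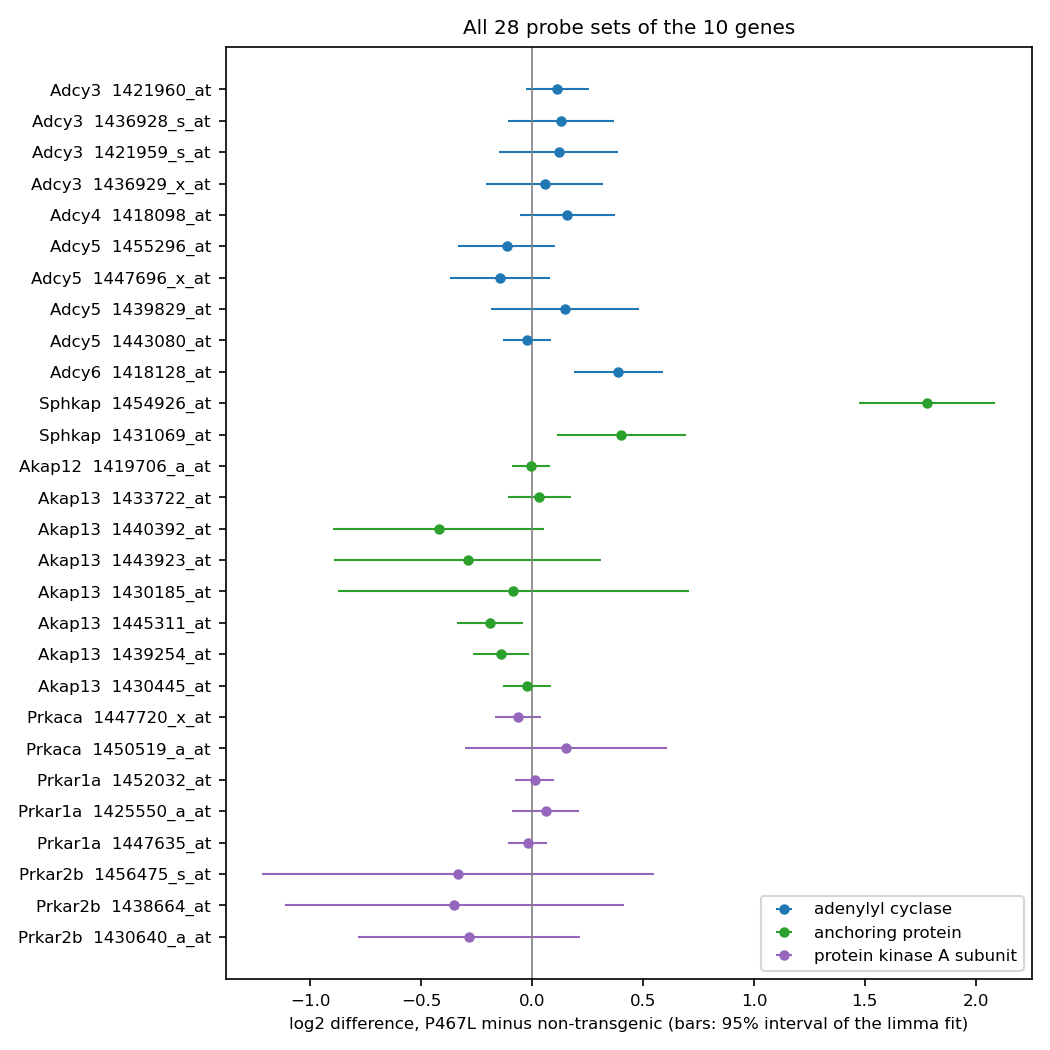
Differences of all 28 probe sets in log2 units, P467L minus non-transgenic; points are mean differences and bars the 95% interval of the limma fit, coloured by role. The brighter Sphkap probe set stands apart at 1.78, and 20 of the 28 lie within 0.2 of 0.

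Sphkap, an anchoring protein that binds type I regulatory subunits and was named for its interaction with sphingosine kinase, had the largest difference of the 28. Its brighter probe set, 1454926_at, measured 10.08, 10.02 and 10.25 in P467L replicates 1 to 3, against 8.46 and 8.21 in non-transgenic replicates 1 and 2. Every P467L array was more than 1 log2 unit above both non-transgenic arrays, and the groups were far apart relative to their spread. The P467L mean was 10.1 ± 0.12 (SD, n = 3) and the non-transgenic mean 8.34 ± 0.18 (SD, n = 2), which differ by 1.78 (SE 0.11; 95% interval 1.48 to 2.09), or 3.44-fold. This was the 13th largest positive difference among all 45037 probe sets, and 0.242% of probe sets differed by at least 1 unit without overlap of the groups. The genes were chosen with these differences known, so the rank and the share are descriptions. It had an adjusted p of 0.126 in limma, and the alternatives below do not include the fit with 1 probe set per gene. Over 12 alternatives it lay between 1.66 and 1.91, with adjusted p from 0.0128 to 0.746, and it passed 0.05 with each array centred on its median and with array weights that did not converge.

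The second Sphkap probe set, 1431069_at, was dim. It measured 6.24, 5.97 and 6.05 in the P467L arrays and 5.77 and 5.60 in the non-transgenic arrays. The groups again did not overlap, with a difference of 0.40 (SE 0.11). The sets thus had the same direction and unequal size, and the dim one had a mean level below the median of all probe sets.

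The region around the annotated Sphkap start is shown because this gene carried the largest difference and the transgene encodes a nuclear receptor that binds DNA at direct repeats of AGGTCA. The sequence is RefSeq's, in build GRCm38.p6, chr1:83408151-83408450 on the minus strand, 300 bases 5′ to 3′ with the start site 250 bases in, and capitals mark the only match to the GC box GGGCGG.
Sphkap: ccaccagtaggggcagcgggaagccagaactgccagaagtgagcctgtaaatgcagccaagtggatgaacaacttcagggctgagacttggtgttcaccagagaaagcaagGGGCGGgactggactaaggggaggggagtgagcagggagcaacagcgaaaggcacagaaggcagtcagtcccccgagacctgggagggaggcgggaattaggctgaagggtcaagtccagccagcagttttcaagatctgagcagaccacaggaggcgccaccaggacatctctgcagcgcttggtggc
On both strands, this window held no match to AGGTCANAGGTCA, the repeat spaced by any base N that PPARγ binds with its partner RXR, to the single AGGTCA, or to TGACGTCA, the cyclic AMP response element. Of 32851 promoter windows of this length, 0.0396% held the repeat, 16.3% the single AGGTCA, which every repeat contains, 1.79% the cyclic AMP response element and 35.7% the GC box. An absent match says only that these letters are not in this window.

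Sphkap is also known from heart and brain, so markers of those tissues were read beside it. Of 8 cardiac muscle markers, 4 were higher and 4 lower in mean in P467L aortas, and the groups did not overlap in 1, cardiac troponin T (Tnnt2), at 9.35, 9.24 and 9.48 in P467L and 8.43 and 8.24 in non-transgenic arrays. The mean level of the cardiac list was 6.82 to 7.03 in P467L and 6.53 to 6.79 in non-transgenic arrays. Nppa, atrial natriuretic peptide, measured 4.10 to 4.14 in P467L and 4.14 to 4.16 in non-transgenic arrays, and 4 of the 8 markers lay below the array medians. Neuronal and glial markers had a mean level of 5.32 to 5.51 in P467L and 5.42 in both non-transgenic arrays, with 4 of 6 below the array medians. Of 8 skeletal muscle markers, 2 had non-overlapping groups, both higher in P467L aortas: muscle creatine kinase (Ckm), at 9.08, 8.77 and 8.27 in P467L and 7.67 and 7.09 in non-transgenic arrays, and glycogen phosphorylase (Pygm), with a difference of 0.42 (SE 0.11). The mean level of the skeletal list was 6.37 to 6.66 in P467L and 6.21 to 6.45 in non-transgenic arrays, with 4 of 8 below the array medians. Over all 18193 genes, read from their brightest probe set, the groups did not overlap in 22.7%, with P467L higher in 16.1%. The part of these cell types in the Sphkap difference was not tested.

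Adcy6, a cyclase inhibited by calcium and by the inhibitory G protein, was the cyclase of the 4 with the largest difference. Its single probe set measured 10.46, 10.59 and 10.46 in P467L arrays and 10.19 and 10.04 in non-transgenic arrays. The lowest P467L array lay above the higher non-transgenic array. The P467L mean was 10.5 ± 0.08 (SD, n = 3) and the non-transgenic mean 10.1 ± 0.11 (SD, n = 2), which differ by 0.39 (SE 0.07), or 1.31-fold. Adjusted p was 0.405 in limma, and over 12 alternatives the difference lay between 0.31 and 0.47. Adjusted p in limma was 0.0311 with the array weights that did not converge, and an unadjusted p below 0.05 was lost with the replicate block (0.0593) and without both arrays that stood apart (0.0966).

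Adcy5, the closest relative of Adcy6 and likewise inhibited by calcium, overlapped between groups in all 4 of its probe sets. The brightest, 1455296_at, measured 12.53, 12.53 and 12.35 in P467L arrays and 12.64 and 12.53 in non-transgenic arrays. P467L replicate 3 was the lowest array, and the others shared a narrow range. The difference was -0.12 (SE 0.08) there, -0.14 (SE 0.08) for 1447696_x_at, 0.15 (SE 0.12) for the dimmer 1439829_at and -0.02 (SE 0.04) for 1443080_at. The positive one, 1439829_at, was highest in P467L replicate 1 and differed by 0.04 without it, and 1447696_x_at differed by -0.23 without non-transgenic replicate 2. No test was made of the difference between Adcy6 and Adcy5.

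Adcy3, a cyclase of olfactory cilia that is also present in many tissues, had 4 probe sets, all with a higher mean in P467L aortas. The differences lay between 0.06 and 0.13. The brightest, 1421960_at, measured 9.35, 9.30 and 9.23 in P467L arrays and 9.15 and 9.21 in non-transgenic arrays. Its lowest P467L array and its higher non-transgenic array were 0.02 apart. In 1421959_s_at the groups also did not overlap, at 8.25, 8.00 and 7.99 in P467L and 7.94 and 7.98 in non-transgenic arrays. P467L replicate 1 was the highest array in all 4 Adcy3 probe sets, and without it the differences lay between -0.02 and 0.09, with 1436929_x_at the one below 0. Without non-transgenic replicate 2, 1436928_s_at differed by 0.23, against 0.13 with it.

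Adcy4, a cyclase stimulated by the βγ subunits of G proteins, measured 8.24, 8.02 and 8.14 in P467L arrays and 8.01 and 7.94 in non-transgenic arrays. The lowest P467L array and the higher non-transgenic array were 0.01 apart. The difference was 0.16 (SE 0.08), with a 95% interval from -0.06 to 0.37, and 0.11 without P467L replicate 1. Across the 10 cyclase probe sets the mean was higher in P467L aortas in 7 and lower in 3, with a median difference of 0.12.

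**Figure D2:**
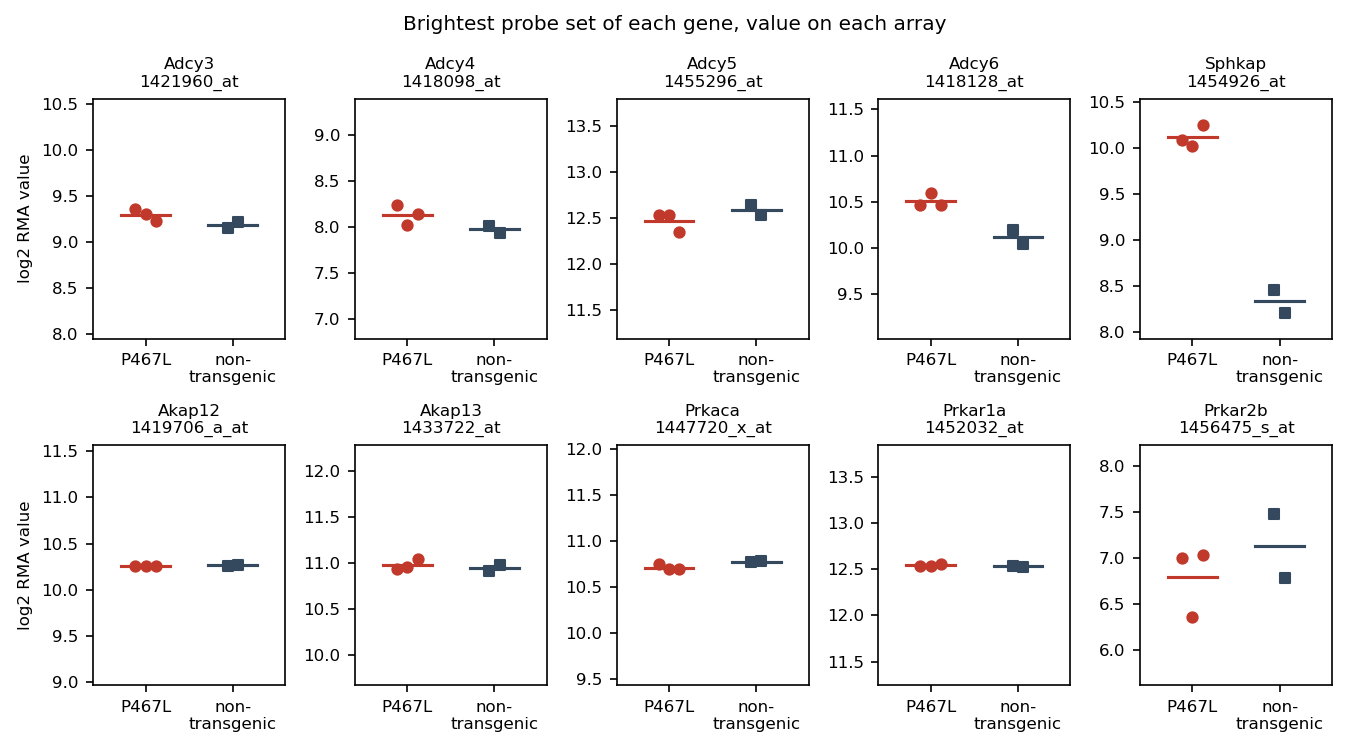
Log2 RMA value of the brightest probe set of each gene on every array; red circles are P467L, dark squares non-transgenic, lines the group means, and each panel spans 2.6 log2 units. Sphkap measured 10.02 to 10.25 in P467L and 8.21 to 8.46 in non-transgenic arrays, while Akap12 and Prkar1a lay flat across all 5 arrays.

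Akap12, a scaffold for protein kinases A and C, measured 10.26 in all 3 P467L arrays and 10.26 and 10.27 in the non-transgenic arrays. The difference was -0.01, with a 95% interval from -0.09 to 0.08. The deposited values carry 2 decimals, which is the step of this spread.

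Akap13, an anchoring protein that also activates RhoA as a guanine nucleotide exchange factor, was read by 7 probe sets whose directions were not uniform. The brightest, 1433722_at, measured 10.93, 10.96 and 11.04 in P467L arrays and 10.91 and 10.98 in non-transgenic arrays. These ranges overlapped, with a difference of 0.03 and a 95% interval from -0.11 to 0.17. The other 6 had lower means in P467L aortas, with differences from -0.42 to -0.02. For 1443923_at the groups overlapped at a difference of -0.29, which became -0.02 when non-transgenic replicate 2 was left out and -0.18 when P467L replicate 1 was.

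In 3 of those 6 all P467L arrays lay below both non-transgenic arrays. The brightest of the 3, 1440392_at, measured 6.46, 6.81 and 6.99 in P467L arrays and 7.22 and 7.13 in non-transgenic arrays, a difference of -0.42 (SE 0.17). P467L replicate 1 was lowest. The dimmer 1445311_at and 1439254_at differed by -0.19 (SE 0.05) and -0.14 (SE 0.05), and both had mean levels below the median of all probe sets.

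P467L replicate 1 was also the lowest array for 1430185_at, at 5.60 against 6.09 and 6.52 in the other P467L arrays and 6.19 and 6.12 in the non-transgenic arrays. The nuclear noncoding RNAs Malat1 and Neat1 were also lowest in that array. Malat1 measured 8.03, 9.69 and 9.87 in P467L arrays and 9.45 in both non-transgenic arrays, and Neat1 10.62, 11.84 and 12.01 in P467L and 11.78 and 11.75 in non-transgenic arrays. Without P467L replicate 1 the difference of 1440392_at was -0.27 and that of 1430185_at was 0.15. The part of whatever sets that array apart was not tested. The Akap13 probe sets were not placed on the gene's exons or introns here.

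**Figure D3:**
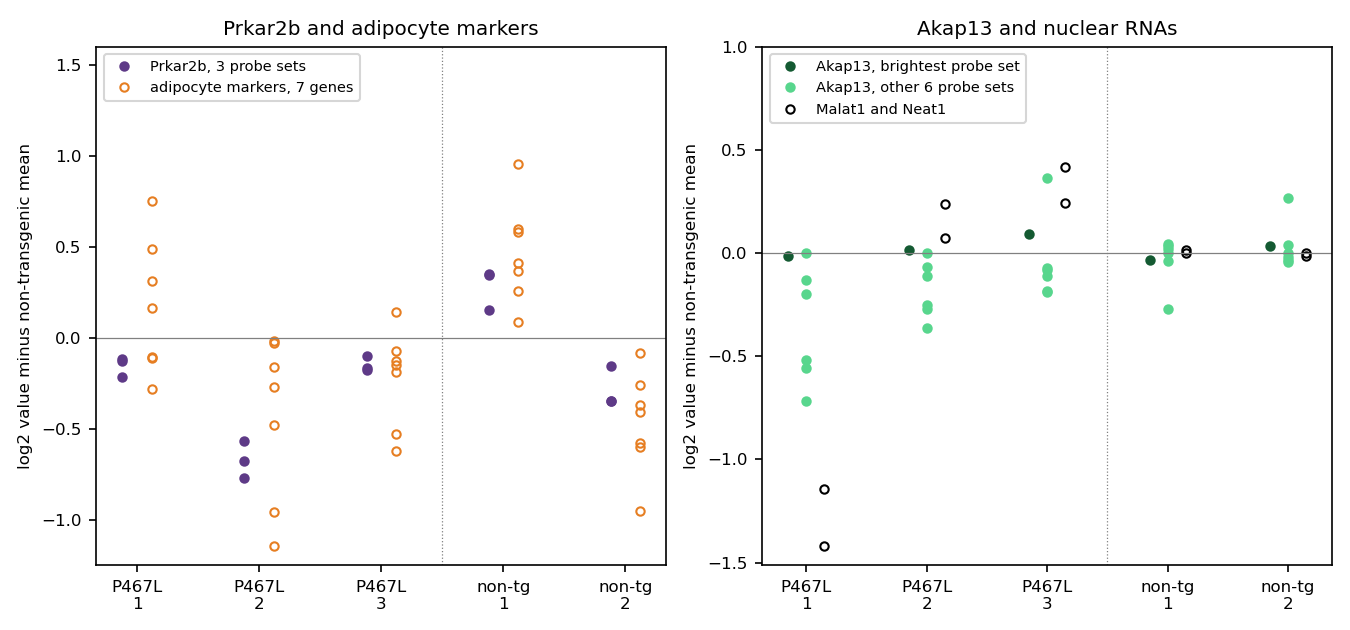
Log2 values minus the non-transgenic mean on each array, for Prkar2b beside 7 adipocyte markers and for Akap13 beside Malat1 and Neat1. Non-transgenic replicate 1 is high in Prkar2b and in the adipocyte markers, and P467L replicate 1 is low in Malat1, Neat1 and some Akap13 probe sets but not in the brightest one.

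Prkaca encodes the main catalytic subunit. Its brighter probe set, 1447720_x_at, measured 10.75, 10.69 and 10.69 in P467L arrays and 10.77 and 10.78 in non-transgenic arrays. All P467L arrays were lower, with a difference of -0.06 (SE 0.04). The other, 1450519_a_at, measured 9.90, 9.63 and 9.40 in P467L arrays and 9.57 and 9.41 in non-transgenic arrays, with overlapping groups and a difference of 0.15 (SE 0.17), or 0.03 without P467L replicate 1. Leaving out non-transgenic replicate 2 gave 0.07. The Prkaca probe sets thus gave opposite signs, each with an interval that includes 0.

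Prkar1a, the widely expressed type I regulatory subunit and the kind that Sphkap binds, was flat. Its brightest probe set, 1452032_at, measured 12.54, 12.54 and 12.56 in P467L arrays and 12.54 and 12.53 in non-transgenic arrays. The difference was 0.01, with a 95% interval from -0.08 to 0.10. The other 2 probe sets differed by 0.06 and -0.02, and all 3 overlapped between groups.

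Of the 8 genes with a promoter window, Prkar1a was the only one with a full cyclic AMP response element; 2 of its overlapping windows share the match. A stretch of 30 bases is shown to place it, from RefSeq in build GRCm38.p6, chr11:109650889-109650918 on the plus strand, with the element in capitals.
Prkar1a: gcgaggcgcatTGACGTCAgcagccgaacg
The 8 genes had 16 windows in all, and 0 of the 16 held AGGTCANAGGTCA. The table has no entry for Adcy6 or Akap12. A match to these letters is not shown to be a bound site.

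Prkar2b, the type II regulatory subunit of neurons and adipocytes, varied within both groups in all 3 of its probe sets. Probe set 1456475_s_at measured 7.0, 6.36 and 7.03 in P467L arrays and 7.48 and 6.78 in non-transgenic arrays. Probe set 1438664_at measured 6.84, 6.38 and 6.89 in P467L and 7.40 and 6.71 in non-transgenic arrays, and 1430640_a_at 6.55, 6.10 and 6.49 in P467L and 6.82 and 6.51 in non-transgenic arrays. In each, non-transgenic replicate 1 was the highest array and P467L replicate 2 the lowest, and the groups overlapped. The differences were -0.33 (SE 0.33), -0.35 (SE 0.28) and -0.28 (SE 0.18). Without non-transgenic replicate 2 they were -0.68, -0.70 and -0.44, and without non-transgenic replicate 1 they were 0.02, -0.01 and -0.13. Without P467L replicate 2 they were -0.12, -0.19 and -0.14.

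Adipocyte markers were uneven across the same arrays. The mean level of 7 white and brown adipocyte markers was 8.93, 8.32 and 8.54 in P467L arrays and 9.22 and 8.29 in non-transgenic arrays. Non-transgenic replicate 1 was highest in the list's mean as in Prkar2b. P467L replicate 1, the next highest in the list, lay close to P467L replicate 3 in every Prkar2b probe set. It was slightly below that array in the 2 brighter ones and slightly above it in the dimmest. Of the 7 markers, 4 were higher and 3 lower in mean in P467L aortas, and the groups overlapped in all 7. Adiponectin (Adipoq) measured 10.30, 9.54 and 9.66 in P467L and 10.39 and 9.23 in non-transgenic arrays. Ucp1 measured 8.86, 7.82 and 8.89 in P467L and 9.92 and 8.01 in non-transgenic arrays. The order of arrays differed between the markers. The part of fat in the Prkar2b values was not tested.

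The rest of the pathway was read from 6 lists of 89 genes, of which 81 were measured by a probe set naming that gene alone, each from its brightest probe set. At an adjusted p of 0.05 limma called 0 of the 81, and 14 had an unadjusted p below 0.05, which is 17.3% against 9.45% of all 18193 genes so read. Of the 14, 10 were higher (6.94% of all genes) and 4 lower (2.51%) in P467L aortas; after a second quantile normalization 5 were higher and 5 lower. The median difference was 0.05 over the 81 genes and 0.02 over all genes. These lists were chosen with earlier results of the data known, so the counts support nothing about the pathway. Leaving out P467L replicate 2 gave a count of 8, and leaving out either non-transgenic array gave a smaller one. The share of all genes in those fits is not given here.

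Markers of other aortic cells also differed between the groups beside these pathway genes. At an unadjusted p below 0.05, 3 of 9 endothelial markers were higher in P467L aortas, among them Cldn5 at 0.73 (SE 0.12) and Nos3 at 0.47 (SE 0.05), and 1 was lower, Emcn at -1.05 (SE 0.12). Of 7 fibroblast markers 3 were higher, with Cd248 at 0.64 (SE 0.13), and 0 lower. Of 7 macrophage markers 2 were higher and 0 lower, and the mean was higher in all 7. Of 6 lymphocyte markers 1 was lower, and the mean was lower in all 6. The mean level was 8.97 to 9.10 in P467L and 8.99 to 9.0 in non-transgenic arrays for the endothelial list, 11.95 to 12.08 in P467L and 11.83 to 11.90 in non-transgenic arrays for the fibroblast list, 9.34 to 9.68 in P467L and 9.31 to 9.34 in non-transgenic arrays for the macrophage list, and 5.79 to 6.05 in P467L and 6.09 to 6.10 in non-transgenic arrays for the lymphocyte list. The part of these cells in the pathway differences was not tested.

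**Figure D4:**
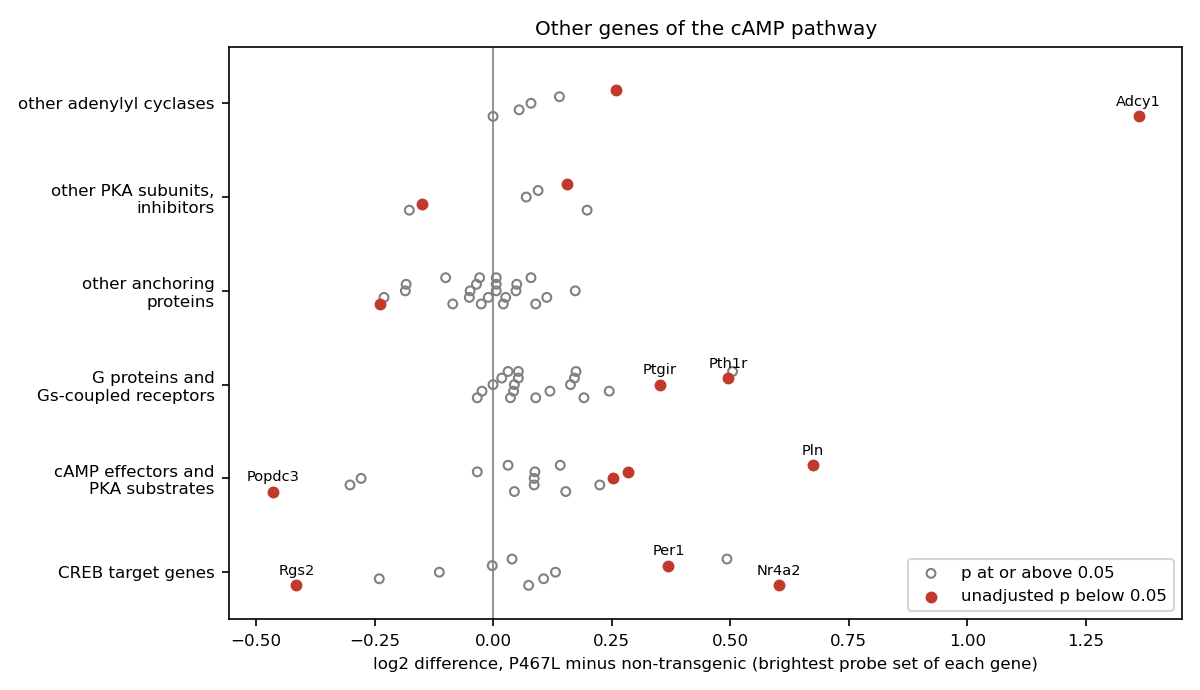
Differences of the 81 other genes of the pathway, in log2 units of P467L minus non-transgenic, by list; filled points have an unadjusted p below 0.05, and names are given to those differing by more than 0.3. Adcy1 stands apart at 1.36, and 0 of the 81 passed adjustment over all probe sets.

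Among the other 6 cyclases, Adcy1, a calcium and calmodulin stimulated cyclase known from neurons, had the largest difference. It measured 8.28, 8.37 and 8.21 in P467L arrays and 7.12 and 6.73 in non-transgenic arrays. The groups did not overlap, and every P467L array lay more than 1 unit above both non-transgenic arrays. The P467L mean was 8.29 ± 0.08 (SD, n = 3) and the non-transgenic mean 6.93 ± 0.28 (SD, n = 2), which differ by 1.36 (SE 0.14) or 2.57-fold, with an adjusted p of 0.206 in limma. It lay between 1.17 and 1.56 over 12 alternatives, with an adjusted p below 0.05 in limma in 1, the array weights that did not converge. A dim second Adcy1 probe set gave 0.09 (SE 0.04).

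Adcy9, a widely expressed cyclase, was higher by 0.26 (SE 0.08), with an adjusted p of 0.578 in limma. All 4 Adcy9 probe sets had non-overlapping groups with P467L higher, by 0.20 to 0.46. Of the 6 other cyclases, 2 had an unadjusted p below 0.05, both higher, and 5 had a higher mean in P467L aortas. Adcy10, the soluble cyclase, was dim and measured 4.47 on all 5 arrays.

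Of 6 other kinase subunits and inhibitor peptides, 1 was higher and 1 lower at an unadjusted p below 0.05. Prkar2a, the type II regulatory subunit of most tissues, measured 10.79, 10.73 and 10.84 in P467L arrays and 10.67 and 10.59 in non-transgenic arrays, a difference of 0.16 (SE 0.05). In 3 of its 4 probe sets the groups did not overlap. Prkacb, the other catalytic subunit, measured 10.63, 10.65 and 10.64 in P467L arrays and 10.86 and 10.72 in non-transgenic arrays, a difference of -0.15 (SE 0.05), or -0.08 without non-transgenic replicate 1. Its 2 other probe sets were also lower in mean, with overlapping groups.

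Of 23 other anchoring proteins measured, 0 were higher and 1 was lower at an unadjusted p below 0.05, and the list's median difference was -0.01. Akap6, which anchors the kinase at the nuclear envelope of muscle cells, differed by -0.24 (SE 0.07). Ezrin (Ezr), a cytoskeletal linker that binds the kinase, differed by -0.23 (SE 0.08). In each the P467L arrays lay below both non-transgenic arrays in the brightest probe set and overlapped in the dimmer one. The differences of the 23, each from its brightest probe set, lay between -0.24 and 0.17, and none was as large as that of Sphkap. Sphkap was chosen with its difference known, so its place above them is a description.

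Of 20 G proteins and receptors measured, 2 were higher and 0 lower at an unadjusted p below 0.05. The prostacyclin receptor Ptgir, which raises cyclic AMP in smooth muscle, measured 6.68, 6.52 and 6.86 in P467L arrays and 6.34 and 6.33 in non-transgenic arrays, a difference of 0.35 (SE 0.11). The parathyroid hormone receptor Pth1r measured 8.83, 8.82 and 8.63 in P467L and 8.52 and 8.01 in non-transgenic arrays, a difference of 0.50 (SE 0.18). It was 0.24 without non-transgenic replicate 2 and 0.75 without non-transgenic replicate 1. Gnas, the stimulatory G protein, measured 13.37 to 13.49 in P467L and 13.38 to 13.41 in non-transgenic arrays, so its groups overlapped.

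Of 15 effectors and substrates measured, 3 were higher and 1 lower at an unadjusted p below 0.05. Popdc2, a membrane protein that binds cyclic AMP, was higher by 0.25 (SE 0.06). Popdc3, of the same family, was the 1 that was lower, at -0.465 (SE 0.16), without overlap of the groups in a dim probe set. Rapgef3, the cyclic AMP activated exchange factor Epac1, was higher by 0.29 (SE 0.08), although the groups overlapped in its 4 dimmer probe sets. Among 11 CREB target genes 2 were higher and 1 lower at an unadjusted p below 0.05. The clock gene Per1 was higher by 0.37 (SE 0.12) and Rgs2, a regulator of Gq signalling, differed by -0.42 (SE 0.12). Rgs2 was lower in mean in all 4 of its probe sets, without overlap of the groups in 3. With the array weights that did not converge, Popdc2, Per1 and Rgs2 passed an adjusted p of 0.05.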

How the data were processed

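RNA from 5 pools of thoracic aorta was measured on 5 arrays. The authors deposited log2 values; the submitters' processing notes name RMA and Affymetrix Power Tools, with no version. RMA, as usually run, equalizes probe intensities between arrays before summarizing them and so largely removes a change common to most transcripts; array medians still lay between 6.17 and 6.25. Precision is limited by the number of arrays. Of 45101 probe sets, 64 controls were left out; of the other 45037, 34945 had 1 gene in the platform annotation, 932 several and 9160 none listed. Groups came from the genotype label. A two-sided moderated fit (limma 3.58.1, R 4.3.3, 4.23 degrees of freedom, no covariate) compared them, with p-values adjusted by Benjamini-Hochberg across all 45037. A check of the fit on simulated data gave every probe set the same noise and held no outlying array. That check therefore does not show how the fit performs on these data. No batch is given in the sources used here. The members and gene lists were chosen with earlier results of these data known. Every member gene is described over all its probe sets, by value or by range, and of each other pathway list the 2 genes with the smallest p in the brightest probe set; Gnas, Adcy10, the genes labelled in the pathway plot and the markers described were singled out after their values were seen. Alternatives covered scaling, dim probe sets, the variance model, array weights, the replicate number, 1 probe set per gene and arrays left out; leaving out P467L replicate 1 and non-transgenic replicate 2 together was chosen after seeing the data. The alternatives given for single probe sets do not include the fit with 1 probe set per gene. Pathway genes without a probe set naming that gene alone were not analysed here.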

Additional observations from a re-analysis of the deposited data

How the results depend on the processing

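Probe sets called over the whole table numbered 0 as reported and also with the replicate block, a second quantile normalization, bright probe sets only, a variance trend and each array left out (0 to 0). They numbered 15 after centring each array on its median, 10 with 1 probe set per gene, 17 at an adjusted p of 0.10 and 2245 with array weights, an estimate that did not converge and gave P467L replicate 2 a weight of 34.1 against 0.148 to 0.901 for the others. Member probe sets at an unadjusted p below 0.05 numbered 5, against 2 of 20 with bright probe sets only and 12 with array weights. They numbered 2 of 10 with 1 probe set per gene and 4 to 7 with 1 P467L array left out. The shares of all probe sets or genes in these alternative fits are not given here, so these counts are not read as results about the members. Those with non-overlapping groups numbered 10, against 5 of 10 with 1 probe set per gene, 12 to 19 with each array left out and 19 without both arrays that stood apart; fewer arrays make an overlap less likely by construction. Pathway genes at an unadjusted p below 0.05 numbered 14. They numbered 9 with the replicate block, 29 with array weights and 8 to 14 with 1 P467L array left out, settings for which the share of all genes is not given here. The replicate numbers are not stated to pair the pools, and deviations from the group means correlated at 0.11 for number 1 and 0.01 for number 2. An unmatched pair, P467L replicate 3 with non-transgenic replicate 2, correlated at 0.15. With 2 control arrays the values for each control are the negatives of those for the other, so they cannot decide whether the pools were paired. The split of member probe sets was 3 higher and 2 lower, and 3 and 1 after either rescaling; over all probe sets at an unadjusted p below 0.05 the share higher was 63.2%, against 77.1% after centring arrays on their medians. Of 328 recomputed member differences, 303 moved by less than the spread between replicates, and 17 of 28 probe sets kept their sign in all settings. These 17 held probe sets higher in mean in P467L aortas, such as those of Sphkap, Adcy6 and Adcy4. They also held lower ones of Akap13, Prkar2b, Adcy5 and Prkaca, and 1452032_at of Prkar1a, at 0.01. The cause of the changes was not tested. Dim probe sets limit what can be said of Adcy5, Akap13 and Sphkap beyond their brighter ones.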
